A study of Brassica rapa subsp. chinensis with 6 samples.

Results

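Jasmonates are plant hormones made from fatty acids. The genes described here mostly carry names from their synthesis, their turnover, the receptor COI1 and the JAZ repressors. They were chosen as the rows whose sequence match text holds a word for lipoxygenase, jasmonate, JAZ, TIFY, allene oxide or coronatine (also spelled coronitine), which gave 19 genes of the 2958 in the table. The RNA came from pakchoi (Brassica rapa subsp. chinensis) sampled when trifoliate, from the aboveground parts, in 3 libraries of the chlorotic mutant strain 564Y and 3 libraries of its wild type, strain 564. The labels call the 3 libraries of a strain biological replicates, and neither name the mutated gene nor say how the mutant arose. The table holds only genes that the authors called as different, with an adjusted p-value under 0.001 and a log2 ratio of 1 or more in either direction. Genes that did not differ were not analysed here. The labels mention several time points in the protocol but give 1 stage.

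Plastid lipoxygenases add oxygen to polyunsaturated fatty acids, and allene oxide synthase, allene oxide cyclase and a peroxisomal chain-shortening pathway turn the product into jasmonic acid. JAR1 joins jasmonic acid to isoleucine, and that conjugate brings JAZ repressors together with COI1, the F-box receptor that marks them for degradation. In leaves the pathway is known for responses to wounding, insects and some pathogens, and many of its own genes, JAZ and lipoxygenase genes among them, are induced by the hormone. These roles were worked out mainly in Arabidopsis thaliana, and the names below come from the sequence match of each row. Of the 19 genes, 14 were matched to an Arabidopsis sequence and 5 to a Brassica sequence.

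Most of the jasmonate genes were lower in the mutant. By the calls in the authors' deposited table, 6 of the 19 genes were higher in 564Y, where 59.7% of all rows were higher, and 13 were lower, where 40.3% of all rows were lower. Their log2 ratios ran from -4.65 to -1.17 among the lower genes and from 1.06 to 3.98 among the higher genes. The median log2 ratio of the 19 genes was -1.36, against 1.15 over all rows with reads in both strains, while the median absolute log2 ratio was 1.69 against 1.63. With the authors' scaling the list thus stood apart from the table in direction more than in the size of its changes. That is a description, as no test of the list was made, and the list holds pairs of gene copies. The table's own balance depended on the scaling. With TMM scaling over the called genes (below), edgeR called 980 rows higher and 1131 lower. One of the 13 lower genes is no jasmonate gene. Bra013296, an inward rectifying potassium channel, was matched only because the letters TIFY stand inside its name, and without it 6 genes were higher and 12 lower. With a log2 ratio of 2 or more in either direction, 3 of the 19 genes were higher (24.6% of all rows) and 3 lower (13.3% of all rows).

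Values below are normalised reads, which are reads of a library divided by its size factor. The authors deposited only the mean of each strain. The reads of the single libraries were worked out from the mean reads and the base mean, and exactly 1 set of whole numbers fitted both for all 19 genes. The libraries are called A, B and C within a strain and carry no replicate number. All 19 genes had reads in every library, and in all 19 the 564Y libraries did not overlap the 564 libraries. That was also so in 100% of the 2619 rows that could be worked out, because every row had been selected for a difference. For the same reason the p-values below are no independent evidence. In bulk samples fewer cells of a type and less RNA per cell cannot be told apart.

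**Figure D1:**
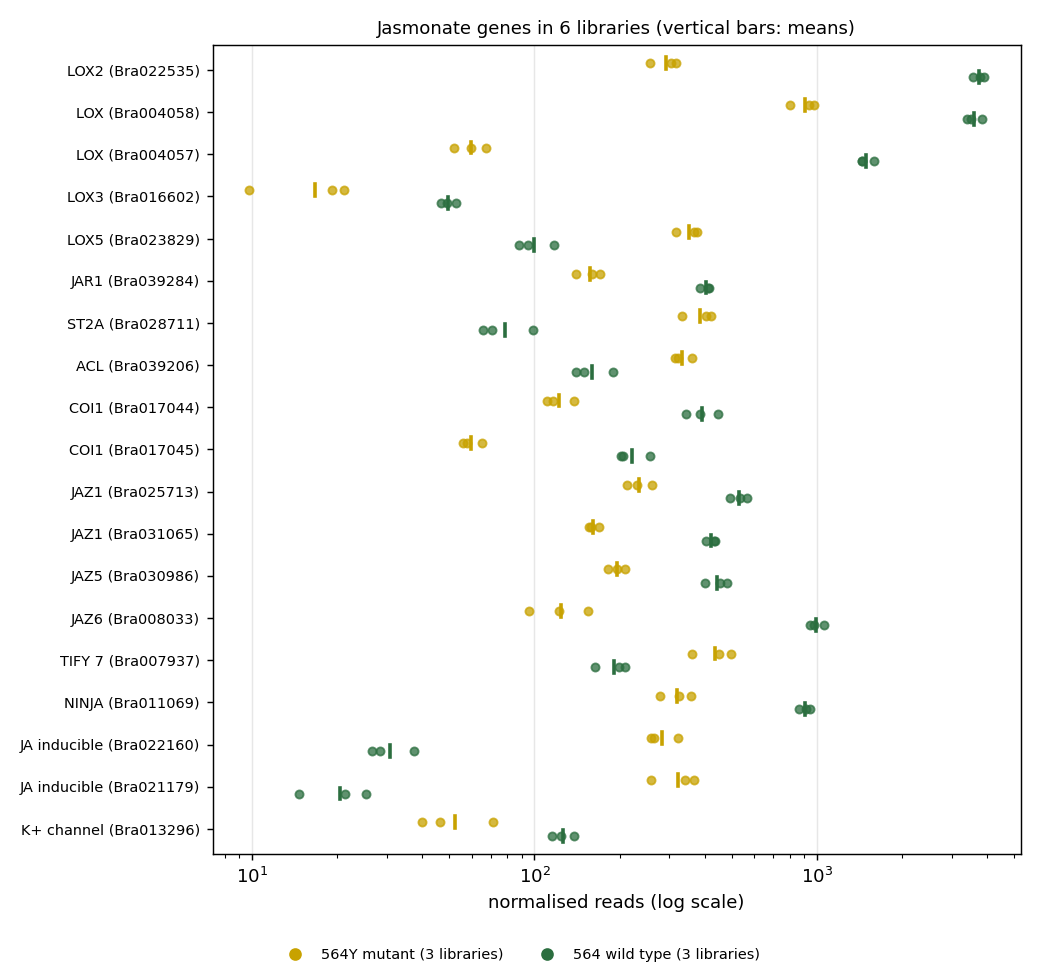
Normalised reads (horizontal log axis) of the 19 genes in the 3 libraries of the 564Y mutant (upper, yellow) and the 3 libraries of the 564 wild type (lower, green), with a vertical bar at each mean. In no row do the colours overlap, and the 6 genes with yellow on the right are LOX5, ST2A, ACL, TIFY 7 and both jasmonate inducible genes.

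Synthesis begins with the lipoxygenases, of which 4 were lower in 564Y and 1 was higher, where 40.3% of all rows were lower. LOX2 (Bra022535), the main leaf lipoxygenase of jasmonate synthesis in Arabidopsis, had 256, 305 and 317 normalised reads in the 564Y libraries, against 3770.0, 3573 and 3899 in the 564 libraries. The highest mutant library thus lay far under the lowest wild type library. The mean was 293 ± 32.2 in 564Y and 3747 ± 164 in 564 (SD, n = 3 each), which is 12.8-fold lower in the mutant. LOX2 ranked 12 of 2958 by p-value in the authors' deposited table, with an adjusted p of 5.73e-265. edgeR's quasi-likelihood test on the worked-out reads gave a log2 change of -3.68 (SE 0.10, Benjamini-Hochberg adjusted p = 2.17e-16).

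A pair of lipoxygenase genes with consecutive identifiers, Bra004057 and Bra004058, was matched to the same Brassica oleracea sequence, named only LOX. Bra004057 had 67.2, 59.7 and 51.8 normalised reads in the 564Y libraries, against 1450.3, 1445 and 1594 in the 564 libraries. It was 25.1-fold lower in 564Y, the largest change among the 13 lower genes in the deposited ratios, and ranked 15 of 2958 by p-value in the authors' deposited table. Bra004058 had 802, 978 and 935 normalised reads in the 564Y libraries, against 3844, 3506 and 3413 in the 564 libraries. It was 3.96-fold lower, with means of 905 ± 91.9 in 564Y and 3588 ± 227 in 564 (SD, n = 3 each). Both copies fell, but unequally. Per kilobase of coding length, the level of Bra004057 was 0.0995, 0.0724 and 0.0657 of that of Bra004058 in the 564Y libraries, against 0.448, 0.489 and 0.555 in the 564 libraries. The sources used here do not say how the authors counted any reads shared by similar copies, so the split between these copies is uncertain.

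LOX3 (Bra016602), another lipoxygenase of jasmonate synthesis in Arabidopsis, was rare. It had 21.1, 19.2 and 9.77 normalised reads in the 564Y libraries, against 52.6, 46.8 and 48.9 in the 564 libraries. It was 2.96-fold lower in the mutant and had the largest adjusted p of the 19 genes in the authors' deposited table, 0.000184. Its 564Y libraries rest on 22, 20 and 10 reads and had the widest relative spread of all 19 genes in the mutant, a coefficient of variation of 36.4%.

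LOX5 (Bra023829) moved the other way. In Arabidopsis this enzyme oxygenates fatty acids at another carbon than LOX2 and LOX3 do, and is not counted among the jasmonate-making lipoxygenases. It had 317, 368 and 376 normalised reads in the 564Y libraries, against 88.1, 117 and 94.7 in the 564 libraries. The gene was 3.54-fold higher in 564Y (edgeR quasi-likelihood log2 change 1.82, SE 0.16, adjusted p = 2.65e-09). Every mutant library was well above every wild type library.

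With these changes the make-up of the called lipoxygenases differed between the strains. Summed over the 5 genes, the level per kilobase was 564 ± 49.4 normalised reads in 564Y and 3281 ± 97.4 in 564 (SD, n = 3 each), 5.82-fold lower in the mutant. LOX2 made up 21.3% ± 0.812 of that sum in 564Y and 46.9% ± 1.12 in 564 (SD, n = 3 each). LOX5 made up 23.1% ± 0.483 in 564Y and 1.13% ± 0.207 in 564 (SD, n = 3 each). The LOX5 level per kilobase was thus close to that of LOX2 in the mutant, at 1.11, 1.09 and 1.06 times its level in the 564Y libraries, against 0.021, 0.0294 and 0.0218 times in the 564 libraries. Bra004058 held the largest share in 564Y, 50.5% ± 0.892, against 34.4% ± 1.92 in 564 (SD, n = 3 each). Lipoxygenase genes that were not called are not in these sums.

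**Figure D2:**
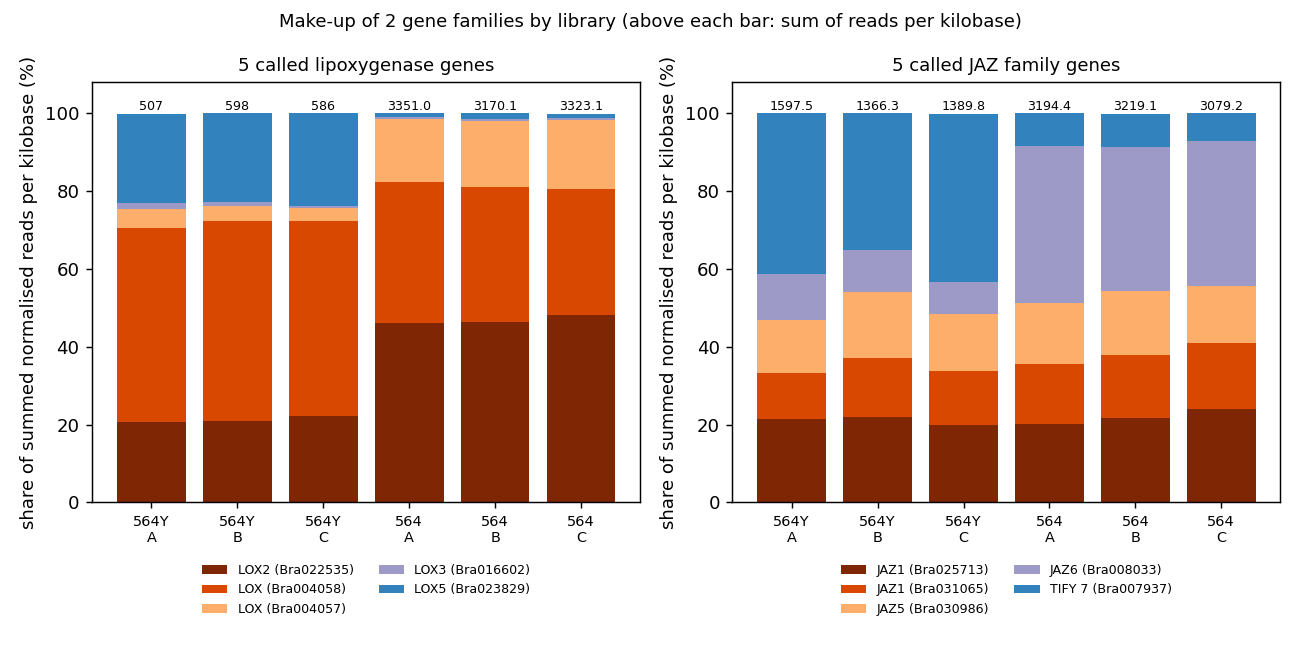
Share (%, vertical axis) of each gene in the summed normalised reads per kilobase of the 5 called lipoxygenase genes (left) and the 5 called JAZ family genes (right), in 3 libraries of 564Y and then 3 of 564, with the sum above each bar. LOX5 takes 23.1% of the lipoxygenase sum in 564Y and 1.13% in 564, and TIFY 7 takes 39.9% of the JAZ family sum in 564Y and 7.99% in 564.

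Further steps of synthesis were followed with lists of pathway words, chosen with earlier results of these data known. No row of the table was described as an allene oxide synthase or cyclase. The list for precursor release and fatty acid desaturation had 0 called genes, so nothing matched there passed the authors' limits. The list for the steps after allene oxide includes the oxophytodienoate reductases and the peroxisomal enzymes. In a table where 59.7% of rows were higher, it had 3 called genes, all higher in 564Y. They were a 3-ketoacyl-CoA thiolase (Bra017469), with authors' means of 1081 normalised reads in 564Y and 254 in 564, acyl-CoA oxidase 4 (Bra006879), with 2213 in 564Y and 1072 in 564, and acyl-CoA oxidase 5 (Bra023025), with 49.9 in 564Y and 17.4 in 564. Such enzymes shorten fatty acids in general, and their names do not tie them to jasmonate alone. The hydroperoxide lyase gene (Bra012788), whose enzyme uses the same lipoxygenase products to make leaf aldehydes, was lower. It had 398, 449 and 393 normalised reads in the 564Y libraries, against 1156, 1114 and 1128 in the 564 libraries, a 2.74-fold difference.

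Of the 3 genes for conjugation and turnover, 1 was lower and 2 were higher, where 59.7% of all rows were higher. JAR1 (Bra039284), the synthetase that makes the active jasmonate-isoleucine conjugate, had 140, 171 and 160 normalised reads in the 564Y libraries, against 416, 385 and 411 in the 564 libraries. It was 2.57-fold lower in the mutant (edgeR quasi-likelihood log2 change -1.36, SE 0.14, adjusted p = 2.13e-08). ST2A (Bra028711), a sulfotransferase that acts on hydroxylated jasmonate, had 333, 405 and 421 normalised reads in the 564Y libraries, against 70.8, 98.7 and 65.6 in the 564 libraries. The sulfotransferase gene was 4.93-fold higher (log2 change 2.30, SE 0.17, adjusted p = 4.52e-10 in the same edgeR test). The gene for the conjugate was thus low, and that for sulfation high, in every 564Y library.

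ACL (Bra039206) is a methyl esterase whose description covers methyl jasmonate, methyl salicylate and a methylated auxin, so it does not belong to jasmonate alone. It had 315, 323 and 361 normalised reads in the 564Y libraries, against 150, 190 and 140 in the 564 libraries. At 2.08-fold higher, it lay nearest to the authors' limit of all 19 genes, with a deposited log2 ratio of 1.06. Without 564Y library C or 564 library C its log2 change in edgeR was 0.99 or 0.97, just under that limit. The list for conjugation and turnover had 1 called gene outside the 19, CYP94B1 (Bra038632), of a cytochrome P450 family known to oxidise the jasmonate-isoleucine conjugate. It had 41.3, 35.6 and 53.7 normalised reads in the 564Y libraries, against 9.11, 0 and 0 in the 564 libraries. All 9 wild type reads of that gene came from library A.

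Both genes named coronitine insensitive 1, the receptor COI1, were lower in 564Y, where 40.3% of all rows were lower. Bra017044 had 111, 138 and 116 normalised reads in the 564Y libraries, against 345, 447 and 384 in the 564 libraries. Bra017045, with the next identifier, had 55.7, 57.7 and 65.4 in the 564Y libraries, against 206, 256 and 202 in the 564 libraries. They were 3.22-fold and 3.72-fold lower (edgeR quasi-likelihood adjusted p = 5.19e-09 and 7.27e-09). Per kilobase, Bra017045 stood at 0.498, 0.418 and 0.56 of Bra017044 in the 564Y libraries, against 0.595, 0.571 and 0.523 in the 564 libraries. These ranges overlapped, whereas those of the lipoxygenase pair with consecutive identifiers did not. The same ratio did not overlap either for the JAZ1 genes or the jasmonate inducible genes, both described below. For JAZ1 (Bra025713 over Bra031065) the ranges lay close, at 1.8, 1.46 and 1.44 in the 564Y libraries, against 1.31, 1.33 and 1.4 in the 564 libraries. How any reads shared by the COI1 copies were counted is not stated either, so this split is uncertain too. Taken as a sum, the receptor genes had 99.8 ± 7.76 normalised reads per kilobase in 564Y and 337 ± 43.7 in 564 (SD, n = 3 each).

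JAZ proteins repress jasmonate responses until COI1 removes them. Of the 5 called JAZ family genes, the 4 named JAZ here were lower in 564Y and TIFY 7 (below) was higher. Over the table, 40.3% of rows were lower. JAZ6 (Bra008033) changed most, with 155, 122 and 95.7 normalised reads in the 564Y libraries, against 1064, 977 and 945 in the 564 libraries. It was 8.01-fold lower (edgeR quasi-likelihood log2 change -3.0, SE 0.14, adjusted p = 7.45e-13) and ranked 60 of 2958 by p-value in the authors' deposited table. The other lower JAZ genes changed about alike, by 2.26-fold to 2.62-fold. The first JAZ1 gene (Bra025713) had 261, 230 and 213 normalised reads in the 564Y libraries, against 491, 533 and 565 in the 564 libraries. The second JAZ1 gene (Bra031065) had 156, 169 and 159 in the 564Y libraries, against 404, 431 and 434 in the 564 libraries. It had the smallest relative spread of the 19 genes, with a coefficient of variation of 4.41% in 564Y and 3.94% in 564. JAZ5 (Bra030986) had 196, 209 and 182 normalised reads in the 564Y libraries, against 452, 479 and 401 in the 564 libraries.

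The fifth gene of the JAZ family, TIFY 7 (Bra007937), is described as jasmonate ZIM domain protein 9 and was higher in 564Y. It had 498, 361 and 451 normalised reads in the 564Y libraries, against 199, 209 and 164 in the 564 libraries. The difference was 2.29-fold (edgeR quasi-likelihood log2 change 1.19, SE 0.15, adjusted p = 3.72e-07). The lowest mutant library, B, was still above all 3 wild type libraries. TIFY 7 was thereby the most abundant JAZ family gene per kilobase in the mutant and the least abundant in the wild type, among those called. Its level per kilobase was 3.51, 3.22 and 5.15 times that of JAZ6 in the 564Y libraries, against 0.205, 0.233 and 0.19 times in the 564 libraries. JAZ6 made up 10.3% ± 1.76 of the summed family level in 564Y and 38.2% ± 1.97 in 564 (SD, n = 3 each). The sum of the 5 genes was 1451 ± 127 normalised reads per kilobase in 564Y and 3164 ± 74.6 in 564 (SD, n = 3 each), a 2.18-fold difference.

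NINJA (Bra011069), the adaptor that links JAZ proteins to a co-repressor, was lower as well. Its match calls it an AFP homolog and interactor of JAZ. It had 278, 357 and 324 normalised reads in the 564Y libraries, against 946, 917 and 864 in the 564 libraries. That is 2.84-fold lower (edgeR quasi-likelihood log2 change -1.51, SE 0.11, adjusted p = 3.67e-10). Thus 5 of the 6 genes for repressors and adaptor were lower, both JAZ1 genes among them, where 40.3% of all rows were lower. A list for the transcription factors and adaptors of the pathway, with MYC2, its relatives and TOPLESS among its words, had 0 called genes besides the 19.

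**Figure D3:**
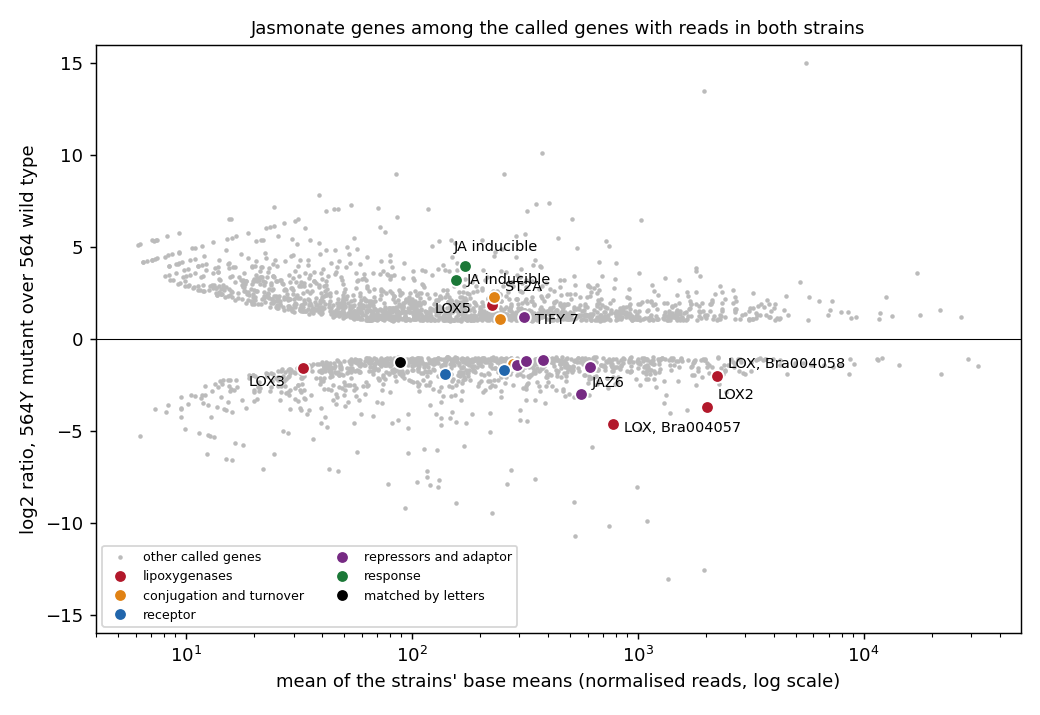
Log2 ratio of 564Y over 564 (vertical axis) against the mean of the strains' base means (horizontal log axis) for the called genes with reads in both strains, in grey, with the 19 chosen genes coloured by role. Among the 19 genes, LOX2, Bra004057 and JAZ6 lie lowest, at log2 ratios of -3.68, -4.65 and -3.0, and both jasmonate inducible genes lie highest, at 3.20 and 3.98.

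Downstream, both genes matched to a jasmonate inducible protein of rapeseed were higher in 564Y, and these were the largest rises among the 19 genes. Bra021179 had 342, 368 and 259 normalised reads in the 564Y libraries, against 25.3, 21.4 and 14.6 in the 564 libraries. Bra022160 had 259, 322 and 266 in the 564Y libraries, against 28.3, 26.5 and 37.5 in the 564 libraries. They were 15.8-fold and 9.19-fold higher (edgeR quasi-likelihood adjusted p = 6.04e-12 and 2.08e-11). Both were high in the strain in which 4 of 5 lipoxygenase genes and both receptor genes were low. Over the table, 59.7% of rows were higher and 40.3% lower. Only the name of their match ties these 2 genes to induction by the hormone, and their response to it was not tested. Both were among the rarer called genes in the wild type, ranking 2356 and 2200 of 2958 by level there.

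A list of other jasmonate response genes matched 32 further rows, 16 higher and 16 lower in 564Y, but many were matched by letters alone. In 9 rows thionin was found inside methionine or cystathionine, 10 rows were lipid transfer proteins whose family name holds the words protease inhibitor, and 2 were other proteins. This sorting was done after the values were seen. The 21 rows set aside were 14 higher and 7 lower, so the balance of the rest depends on the sorting. The remaining 11 rows named the kind of protein the list was for, and 2 of them were higher and 9 lower, in a table where 59.7% of rows were higher and 40.3% lower. The lower ones included a Kunitz-type cysteine protease inhibitor (Bra008025), a class of proteins that act against insect digestive enzymes. It had 71.1, 50 and 76.2 normalised reads in the 564Y libraries, against 2137.5, 1787 and 2038 in the 564 libraries, 30.2-fold lower. A thionin gene (Bra000815), coding for a small antimicrobial protein, had 1 read in all 564Y libraries together, against 72 reads in the 564 libraries. The remaining genes of this list that the naming rule picked were lipid transfer proteins, both higher: Bra037222, with means of 100 normalised reads in 564Y and 3.09 in 564, and Bra023816, with 47.4 in 564Y and 2.43 in 564.

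Some response genes were picked out after their values were seen. JR1 (Bra022161), a jasmonate responsive gene of Arabidopsis, had 281, 247 and 254 normalised reads in the 564Y libraries, against 1420, 1391 and 1281 in the 564 libraries. It was 5.23-fold lower, while Bra022160, the jasmonate inducible gene with the preceding identifier, was higher. The protease and trypsin inhibitors among the 11 rows numbered 8, of which 2 were higher and 6 lower, where 40.3% of all rows were lower. One of the higher ones, Bra016007, had 402, 278 and 287 normalised reads in the 564Y libraries, against 76.9, 88.5 and 102 in the 564 libraries. A putative tyrosine aminotransferase (Bra007828) was 2.42-fold lower. Response genes of the pathway thus went in both directions.

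**Figure D4:**
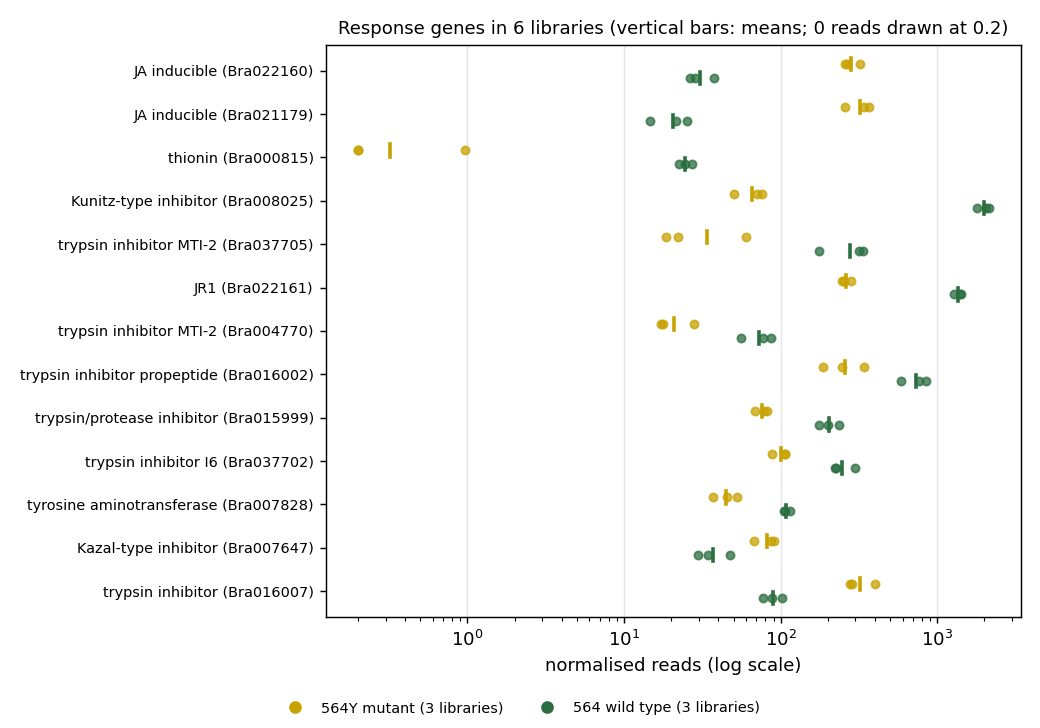
Normalised reads (horizontal log axis, 0 reads drawn at 0.2) of both jasmonate inducible genes and the 11 response genes sorted by name, in 3 libraries of 564Y (upper, yellow) and 3 of 564 (lower, green), with a bar at each mean. The jasmonate inducible genes and the last 2 rows, the inhibitors Bra007647 and Bra016007, lie to the right in 564Y, and the 9 rows between them lie to the left.

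Neighbouring defence programmes were counted in the same way. The wound and touch list had 1 called gene, WRKY40-1 (Bra035148), with 270, 224 and 277 normalised reads in the 564Y libraries, against 528, 549 and 564 in the 564 libraries. The list for salicylate and systemic immunity, a programme often opposed to jasmonate, had 3 called genes besides ACL, and these were lower. Pathogenesis related protein 1 (Bra013124), the usual marker of salicylate responses, had 0.961, 3.85 and 0 normalised reads in the 564Y libraries, against 93.1, 124 and 121 in the 564 libraries. The 2 genes of ALD1, an enzyme of systemic resistance, were 4.32-fold lower (Bra013138) and 3.32-fold lower (Bra013137). ACL, which the salicylate list matched too, was higher, and 40.3% of all rows were lower, so these 3 genes say little about the list.

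Words for other organs were matched in the same table, where 59.7% of all rows were higher and 40.3% lower. Of 8 called genes matched to flower and inflorescence words, 6 were higher, a share to be read against that background, with summed levels of 790 to 928 normalised reads in the 564Y libraries and 630 to 654 in the 564 libraries, and the AGL8 homolog (Bra012997) had 0 reads in 564. Of 12 called genes with seed words, 11 were higher, but 10 of the 12 were the lipid transfer proteins named above, whose family name holds the words seed storage. The sums of 1759 to 2105 normalised reads in 564Y and 688 to 826 in 564, over the 11 genes with worked-out libraries, are mostly theirs. The other 2 were an oleosin (Bra035603), with means of 25.1 in 564Y and 1.73 in 564, and a gene related to late embryogenesis abundant proteins (Bra027957), with means of 48 in 564Y and 16.7 in 564. The root words matched 3 genes, 2 of them higher, with sums of 81.6 to 91.4 in 564Y and 30.5 to 34.4 in 564. The higher ones were MLP34 (Bra003939), with means of 31.3 in 564Y and 0.347 in 564, and RHD2 (Bra029194), with 56.7 in 564Y and 7.83 in 564. PERK13 (Bra016218) was lower, with 0 reads in 564Y and a mean of 23.9 in 564. The leaf photosynthesis words matched 4 genes, all lower, with sums of 612 to 828 in 564Y and 1480 to 2434 in 564, although CES101 among them is a receptor kinase. Markers that were not called were not analysed here, so the tissue label was checked against called genes only. The part of these values in the jasmonate results was not tested.

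The spread between libraries was much the same for the jasmonate genes as for the table. Their median coefficient of variation was 11.4% in 564Y and 8.99% in 564. Over the 1762 rows with a base mean of at least 20 in both strains it was 11% in 564Y and 11.8% in 564. No library led throughout. In 564Y library A was the lowest in 11 of the 19 genes, library C in 7 and library B in 1, and in 564 library C was the lowest in 9, library B in 6 and library A in 4. The sums of mean reads over the called genes were 1677855 per library in 564Y and 1348884 in 564, which are not library depths. Library depths are not stated in the labels or the file.

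All 19 genes kept their direction under the scalings run, but some calls at the authors' limits were lost. edgeR and DESeq2 with the authors' size factors each called all 19 genes at those limits, where 99.8% and 98.9% of the worked-out rows passed. With TMM scaling over the called genes edgeR called 17 of the 19 genes, where 80.6% of the rows passed, and the log2 changes of ACL and TIFY 7 were 0.63 and 0.77. With sums over the called genes as library sizes it called 16 of the 19, where 85.5% of the rows passed. The genes under the limit were then JAZ1 (Bra025713, -0.86), JAZ5 (-0.87) and the potassium channel (-0.94). These scalings moved the median log2 of all worked-out rows by -0.43 and 0.32, and both take selected genes as the standard.

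**Figure D5:**
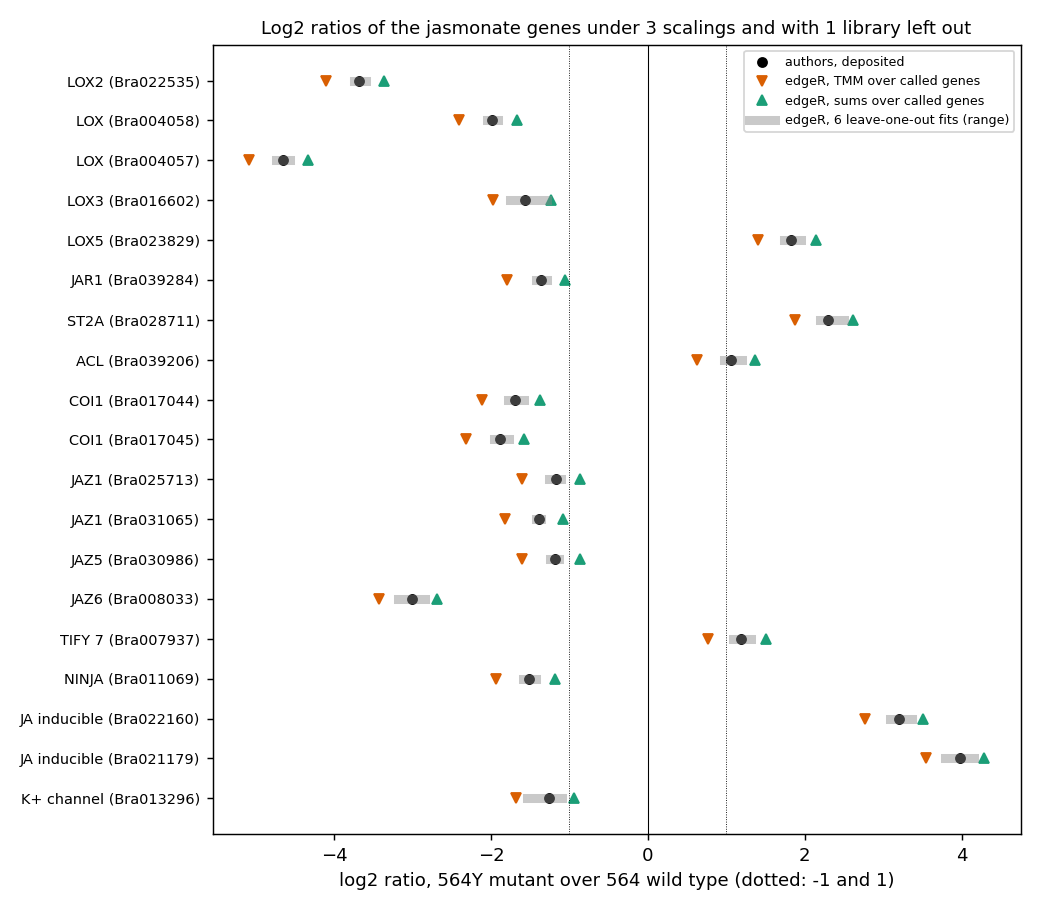
Log2 ratio of 564Y over 564 (horizontal axis) of the 19 genes as the authors deposited it (black), in edgeR with TMM scaling over the called genes (orange), in edgeR with sums over the called genes as library sizes (green), and over the 6 edgeR fits that leave out 1 library (grey range). All 19 genes keep their side of 0, and ACL and TIFY 7 come within 1 of it with TMM, at 0.63 and 0.77.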

How the data were processed

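The only file was the authors' table of called genes. Per the file headers it gives the mean read count per library of each strain, treated as a signal, and the base mean, a size-factor-normalised mean treated as a score. The log2 ratio, p-value and adjusted p-value were deposited by the authors. The submitters' processing notes name DESeq 1.10.1, TopHat2 2.0.12 and Bowtie2 2.2.3 without a role. For genome build, annotation and read counter the sources used here give nothing. Gene lengths, all multiples of 3, are coding lengths. None of the 19 identifiers was found in the RefSeq gene table, so no coordinates or sequences are given.

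Reads per library were worked out from the mean reads, which times 3 are whole numbers, and the base means. Genes with 1 read revealed the size factors, 1.04, 1.04 and 1.02 in 564Y and 0.988, 0.983 and 0.961 in 564. Exactly 1 solution was found in both strains for 2619 of 2958 genes (88.5%). In simulated libraries, with size factors drawn at random, 0 of the single solutions were wrong. There 99.3% of the genes simulated for 564Y had 1 solution, whereas 339 genes had several in the real 564Y data. The real factors of 564Y libraries A and B nearly coincide, and the simulation did not test that setting. These reads were tested with edgeR 4.0.16 (quasi-likelihood, the authors' size factors, p-values adjusted over 2619 rows) and with DESeq2 1.42.0 as an alternative. In simulated data edgeR recovered 83% of 200 genes changed 2-fold over 2619 genes at an adjusted p under 0.05, with 2.35% false calls. No log2 limit was set there and most genes were unchanged, so these are not the rates of the calls at the authors' limits. SEs were derived from the log2 change and the F statistic. The authors' calls were the main result, as the table leaves no unchanged genes for a test. All 19 genes were named. Of the other jasmonate and defence lists, up to 4 called genes with the largest log2 ratio in either direction were named, and any with 0 reads in a strain. The organ lists were counted by direction, and only some of their genes were named. The members and lists were chosen with earlier results of these data known. Nothing beyond the labels shows that the libraries are separate plants, so p-values measure only their spread.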

Additional observations from a re-analysis of the deposited data

How the results depend on the processing

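No paired analysis was possible because the worked-out libraries carry no replicate number. With a log2 limit of 2, 3 genes were higher and 3 lower, against 6 and 13 at the authors' limits. A minimum of 10 normalised reads and worked-out rows alone removed none of the 19 genes. Of 209 log2 ratios recomputed for the 19 genes, 0 changed sign, and of the 190 with a test 0 lost an adjusted p under 0.05, which says little about stability because nearly all selected rows pass. At the authors' limits edgeR and DESeq2 each called 19 genes, and leaving out 1 library gave 18 to 19, with ACL the gene lost. TMM over the called genes moved the median log2 of all rows by -0.43 and left 17 genes. With TMM edgeR called 980 rows higher and 1131 lower, against 1484 and 1131 with the authors' size factors. Sums over the called genes moved the median by 0.32 and left 16 genes, with 1488 rows higher and 752 lower. Both scalings take selected genes as the standard.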

Other observations

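Of the 9 rows matched by the letters thionin inside a longer word, 3 were higher in 564Y and 6 lower, in a table where 59.7% of rows were higher. Genes of the carboxyl methyltransferase family, which in Arabidopsis includes the enzyme that makes methyl jasmonate, were found among them, and no substrate is named for them. The family genes Bra009460, Bra011685 and Bra017763 were the 3 higher ones, with authors' means of 780, 290 and 37.7 normalised reads in 564Y and 206, 141 and 3.41 in 564. Another methyltransferase among the 9, Bra026163, which is not described as a member of that family, had 18.4 in 564Y and 69.8 in 564 and was 3.8-fold lower. All 4 were picked after their values were seen.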
